A study of Homo sapiens with 33 samples.

Results

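The genes described here are the 10 members of the AP-1 group of transcription factors JUN, JUNB, JUND, FOS, FOSB, FOSL1, FOSL2, ATF3, BATF and BATF3, chosen by symbol from the 62446 gene rows of the count tables. Their messenger RNA was measured by RNA sequencing in acute lymphoblastic leukaemia cell lines, in 33 libraries that form 11 groups of 3. Nalm6, a B-cell precursor line, was left untreated or received 0.5 µM CHIR-99021 (CHIR, which blocks the kinase GSK3 and so acts as a Wnt agonist), 5 µM prednisolone or 100 nM dexamethasone, and a second untreated group belongs to the dexamethasone libraries. A Nalm6 line with a knockout of TLE1, a co-repressor of the Groucho family, provided 1 untreated group and groups given 100 nM dexamethasone or 5 µM prednisolone. CEM, a T-cell leukaemia line, was left untreated or received 2 µM CHIR or 10 µM prednisolone. Every treatment lasted 24 h. The Nalm6 and knockout cultures, treated and untreated alike, grew in medium with charcoal-stripped serum. Whether the knockout line is 1 clone is not stated in the labels. The treatment text in the labels pairs the drugs and the lines differently from the sample titles, and the titles were followed. The series text describes 3 independent experiments for CHIR in Nalm6 and for prednisolone in the knockout; for the other groups p-values measure the spread between these libraries, which may be technical.

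AP-1 is a dimer of basic leucine zipper proteins. JUN proteins can pair with themselves or with FOS proteins, FOS proteins need a partner, and BATF proteins pair with JUN proteins and act with interferon regulatory factors in lymphocytes. Many AP-1 genes are immediate early genes, switched on within minutes by growth factors and stress through kinases such as ERK and JNK, and the glucocorticoid receptor is known to restrain AP-1 at the protein level. GSK3, the target of CHIR, phosphorylates JUN and marks it for degradation.

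Libraries held 25292579 to 61930057 gene counts, and levels are given as CPM, the counts scaled to 1000000 gene counts per library. The TLE1 transcript was still present in the knockout, at 25.4, 24.0 and 24.0 CPM untreated against 30.2, 34.0 and 31.8 CPM in untreated Nalm6, so the transcript does not by itself mark the knockout. All 10 B-cell precursor markers examined averaged at least 1 CPM in Nalm6 and in the knockout, with sums of 3560 to 4330 and 3680 to 4280 CPM. All 10 T-cell markers did so in CEM, where the B-cell sum was 359 to 733 CPM and PAX5, EBF1 and CD22 were under 1 CPM. The 8 myeloid markers summed to at most 7.17 CPM and the 5 stromal and endothelial markers to at most 15.4 CPM in any library. Each log2 fold change is followed by its standard error and comes from edgeR's quasi-likelihood test, with p-values adjusted over all genes tested and called under 0.05. The counts of genes below are read against the share of all genes called in the same direction. In bulk samples such as these, fewer cells of a kind and less RNA per cell cannot be told apart.

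RefSeq promoter windows of GRCh38.p14, from 250 bases before to 50 bases after a gene's start, were found for 8 of the 10 members (FOSL1 and BATF3 had no entry). The 210 bases before the start are shown for JUN, JUND, FOS and FOSB, 4 of the members that were at least 2.03-fold higher under prednisolone in Nalm6 in the results that follow. BATF, 2.42-fold higher there, is not shown. Capitals mark matches to the JUN-type site TGACATCA, to the cyclic AMP response element TGACGTCA and to its shorter form TGACG on either strand, which can overlap the longer site. JUN lies at chr1:58784048-58784257 on the minus strand, JUND at chr19:18281623-18281832 on the minus strand, FOS at chr14:75278618-75278827 on the plus strand and FOSB at chr19:45467786-45467995 on the plus strand.
JUN: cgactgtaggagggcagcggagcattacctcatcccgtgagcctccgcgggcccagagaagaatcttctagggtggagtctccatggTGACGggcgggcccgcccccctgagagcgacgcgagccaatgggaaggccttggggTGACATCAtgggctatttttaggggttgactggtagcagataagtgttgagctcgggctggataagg
JUND: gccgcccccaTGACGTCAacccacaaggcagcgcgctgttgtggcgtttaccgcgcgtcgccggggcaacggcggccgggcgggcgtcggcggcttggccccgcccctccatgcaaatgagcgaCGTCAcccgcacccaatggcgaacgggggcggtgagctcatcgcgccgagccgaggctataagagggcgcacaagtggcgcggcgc
FOS: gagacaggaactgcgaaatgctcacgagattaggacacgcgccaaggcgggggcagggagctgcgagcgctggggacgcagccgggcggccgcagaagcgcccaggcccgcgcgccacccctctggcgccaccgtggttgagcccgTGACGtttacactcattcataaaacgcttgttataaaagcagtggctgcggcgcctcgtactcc
FOSB: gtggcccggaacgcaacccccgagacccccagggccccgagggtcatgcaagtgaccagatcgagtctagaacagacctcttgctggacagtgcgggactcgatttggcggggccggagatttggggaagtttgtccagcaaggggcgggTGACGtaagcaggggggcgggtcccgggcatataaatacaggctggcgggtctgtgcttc

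In the JUN window the site TGACATCA begins 67 bases before the start, and 2.61% of all 35116 promoter windows hold that site. ATF3 has the same site 123 bases before its first listed start. The JUND window holds TGACGTCA, 200 bases before the start, which 1.85% of windows share. The short form TGACG was in the windows of JUN, JUNB, JUND, FOS, FOSB and FOSL2, against 24.6% of all windows. JUNB is among these although it was 0.998-fold under prednisolone in Nalm6. The window of BATF, at 2.42-fold, held none of the sites searched. The AP-1 site pattern TGANTCA, where N is any base, was found in 1 member, FOSL2, and in 7.71% of all windows. In FOSL2 the match TGACTCA begins at base 5 after the start. The single-sided glucocorticoid receptor site TGTTCT was found in FOSB alone among the members (14.8% of windows). No member window held the glucocorticoid receptor palindrome (0.199% of windows), the CArG box (1.29%) or the TCF site CTTTGAT (2.62%). These are letter matches in a short window and say nothing of binding.

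JUND was the most abundant member per length of exon in every group. In untreated Nalm6 it stood at 27.5 ± 2.83 CPM per kb (SD, n = 3), followed by JUNB at 15.3 ± 1.60, FOSL2 at 2.19 ± 0.0485, ATF3 at 2.01 ± 0.154 and JUN at 1.96 ± 0.152 CPM per kb. FOS (0.364 CPM per kb), FOSB (0.240) and FOSL1 (0.0790) were the lowest. The 3 JUN genes together made up 86.9% of the summed AP-1 level per kb in untreated Nalm6, 84.4% in the untreated knockout and 75.7% in untreated CEM. The 4 FOS genes made up 5.62%, 3.39% and 8.66% in the same groups. JUN's own share was 3.81% in untreated Nalm6 and 12.3% in untreated CEM, and it was 28.1% in CEM under prednisolone and 2.11% in the knockout under dexamethasone. The stacked plot by group shows JUND as the widest band in every bar and JUN as a wide band in CEM.

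**Figure D1:**
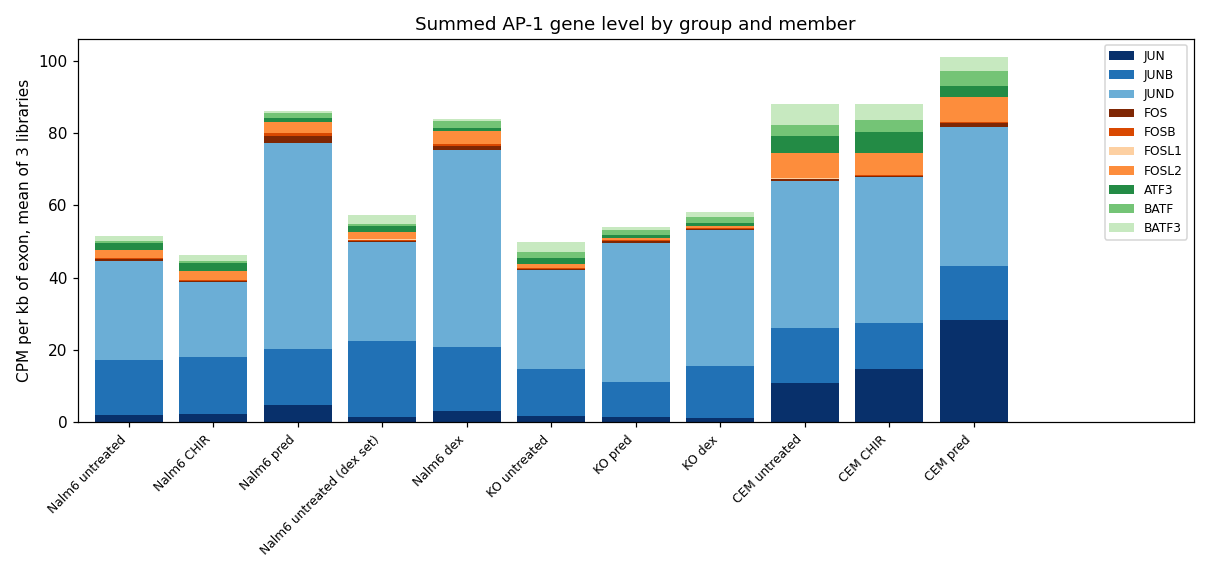
Stacked bars give the mean level of each AP-1 gene in CPM per kb of exon (3 libraries per group, no error drawn) in the 11 groups. JUND forms the widest band in every group, and the JUN band is widest in the 3 CEM groups, reaching 28.4 CPM per kb under prednisolone.

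JUN ranged over 23.2-fold between group means, the widest span of the 10 genes. The order was CEM under prednisolone (100 CPM), under CHIR (52.0) and untreated (38.2), then Nalm6 under prednisolone (16.8) and dexamethasone (10.6), and the libraries of none of these neighbouring groups overlapped. Below them came Nalm6 under CHIR (7.81) and untreated (6.92), whose libraries overlapped each other. The 3 knockout groups and the untreated dexamethasone set lay lowest, between 4.33 and 5.75 CPM, and each overlapped its neighbour. FOSL2 and BATF3 followed with spans of 15.4-fold each. For FOSL2, 3 of 10 neighbouring pairs of groups overlapped, and for BATF3 1 of 10. JUNB varied least, by 2.18-fold, and 7 of its 10 neighbouring pairs overlapped. FOSL1 had 2 to 16 counts per library, and all 10 of its neighbouring pairs overlapped. The highest group mean belonged to a glucocorticoid-treated group for JUN, JUND, FOS, FOSB, FOSL1 and BATF, and to another group for JUNB, FOSL2, ATF3 and BATF3. For FOSL1 and BATF the highest group overlapped the next one, which had received no glucocorticoid. How often a glucocorticoid-treated group is highest over all genes was not computed, so no result is drawn from this order.

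**Figure D2:**
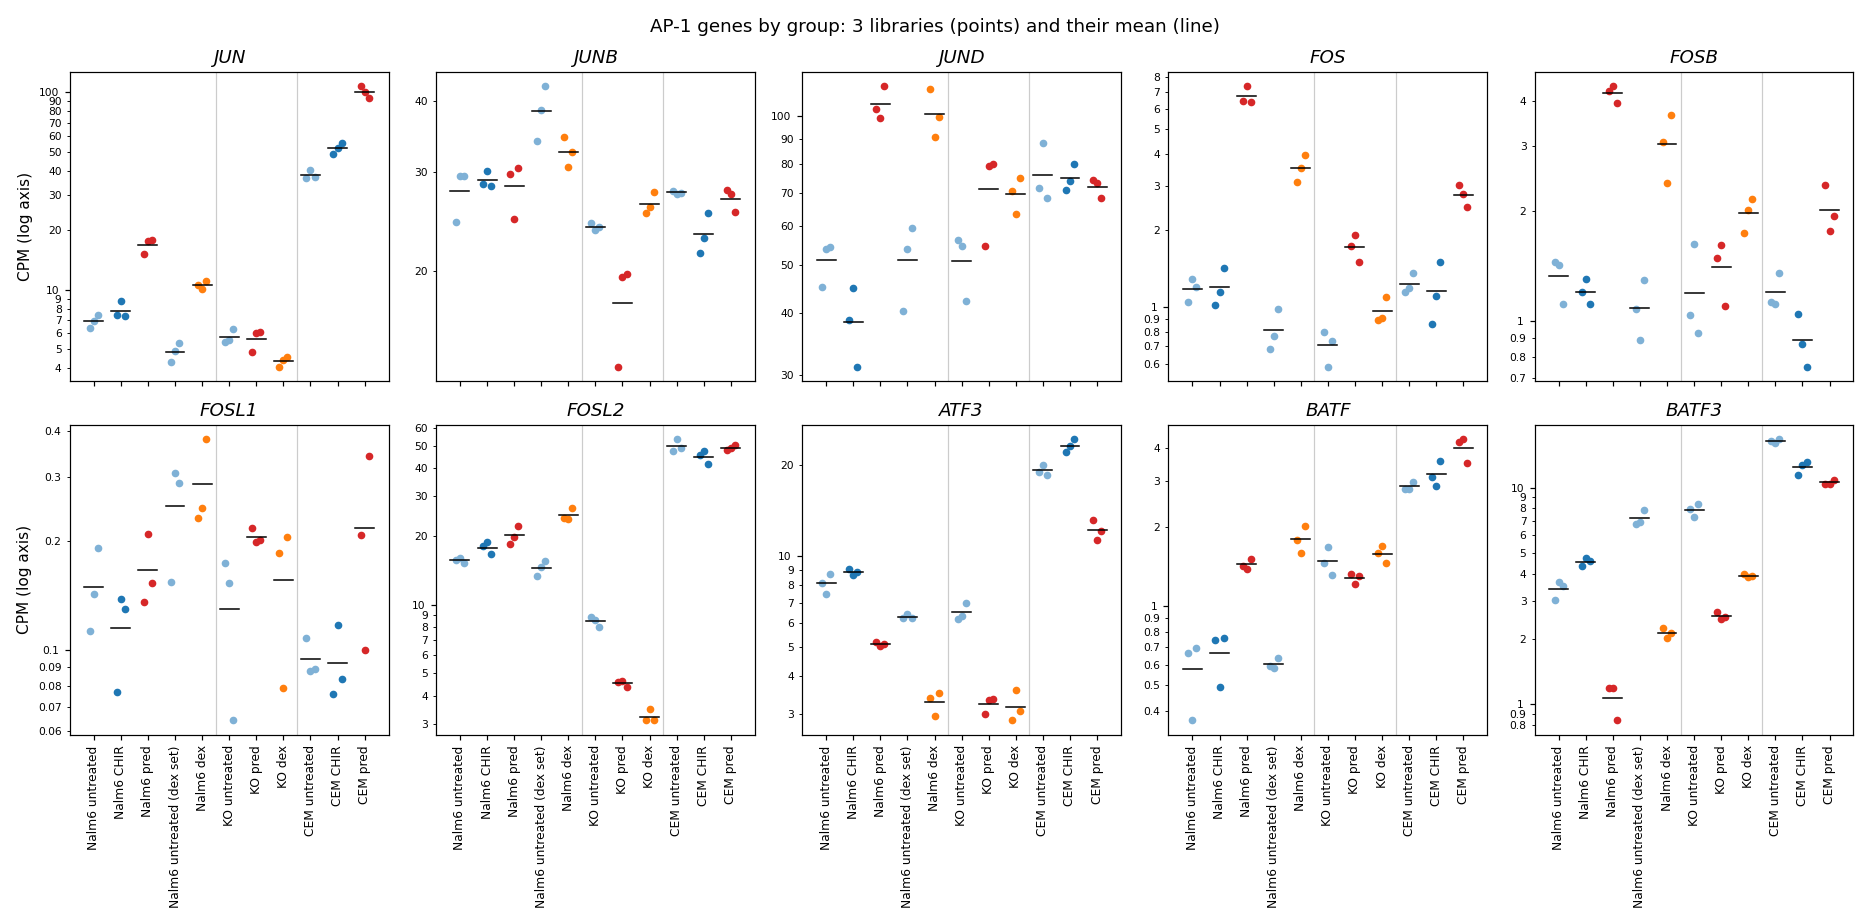
Each panel gives 1 gene in CPM on a log axis, with 3 libraries per group as points and their mean as a line. Light blue marks untreated groups, dark blue CHIR, red prednisolone and orange dexamethasone, and the grey lines separate Nalm6, the TLE1 knockout (KO) and CEM.

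The first comparison is the glucocorticoid response of parental Nalm6. JUN, JUND, FOS, FOSB and BATF were 1.94-fold to 5.63-fold higher under either drug, FOSL2 rose less, and ATF3 and BATF3 fell. Because the response of JUN in the knockout was known when these genes were chosen, JUN is described with no test in every comparison. Counts of calls are over the other members. Of 8 other members tested under prednisolone, 5 rose, 2 fell and 1 was not called, where 28.7% of all genes tested rose and 26.1% fell. Under dexamethasone, 5 of 9 rose, 3 fell and 1 was not called, where 30.2% of all genes rose and 30.2% fell. The titles name no untreated group for the Nalm6 prednisolone libraries, and the untreated group without a drug in its title was used for them, while the dexamethasone libraries have a group of their own. In the order of deposited samples, the prednisolone libraries stand in the later block, beside the untreated group of the dexamethasone set. The untreated group used here stands in the earlier block, with the untreated and prednisolone groups of the knockout. What the block contributes was not tested. Against the untreated group of the dexamethasone set, an alternative chosen after seeing the data, 5 of the 8 rose and 3 fell under prednisolone, where 31.8% of all genes rose and 32.5% fell. BATF3 was then -2.90 in place of -1.72, JUNB -0.55 (edgeR adjusted p = 2.73e-05) in place of a value near 0, and JUN 1.70 in place of 1.27.

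JUN, the member that gave the family its name and a strong transcriptional activator, stood at 6.39, 6.90 and 7.47 CPM in untreated Nalm6 and at 15.1, 17.7 and 17.8 CPM under prednisolone. The groups did not overlap, and the log2 fold change was 1.27 ± 0.08, or 2.41-fold. In the dexamethasone set JUN went from 4.27, 4.89 and 5.33 CPM untreated to 10.6, 10.1 and 11.1 CPM, a log2 fold change of 1.11 ± 0.09. JUND, often described as a brake on proliferation, went from 45.2, 54.0 and 54.5 CPM to 103, 99.1 and 115 CPM under prednisolone, and it rose by 1.02 ± 0.07 (edgeR adjusted p = 9.28e-10). Under dexamethasone it rose by 0.96 ± 0.10 (edgeR adjusted p = 2.03e-06), from 40.3, 53.9 and 59.4 CPM to 113, 90.8 and 99.6 CPM. JUNB, which can oppose JUN at shared targets, gave a different picture. Its libraries under prednisolone, at 29.7, 24.7 and 30.4 CPM, overlapped the untreated ones at 24.4, 29.4 and 29.5 CPM (0.998-fold, edgeR adjusted p = 0.982). Under dexamethasone JUNB fell by 0.27 ± 0.07 on the log2 scale (edgeR adjusted p = 0.0037), with 34.0, 38.6 and 42.6 CPM untreated and 34.6, 30.6 and 32.5 CPM treated.

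Of the 4 FOS genes, which encode partners of JUN proteins, FOS, FOSB and FOSL2 rose in both sets. FOS was low before treatment, at 1.05, 1.28 and 1.20 CPM, and stood at 6.42, 7.38 and 6.38 CPM under prednisolone. Its rise of 2.49 ± 0.12 (5.63-fold, edgeR adjusted p = 1.53e-11) was the largest of the members under that drug. Under dexamethasone FOS went from 0.682, 0.769 and 0.980 CPM to 3.10, 3.52 and 3.96 CPM, a rise of 2.10 ± 0.17 (edgeR adjusted p = 8.57e-08). FOSB, a close paralogue, went from 1.45, 1.43 and 1.11 CPM to 4.24, 4.38 and 3.94 CPM under prednisolone, a rise of 1.62 ± 0.13 (edgeR adjusted p = 1.43e-08). It rose by 1.44 ± 0.19 under dexamethasone (edgeR adjusted p = 1.34e-05). FOSL2, also called FRA2, is a FOS protein without the strong activation domain of FOS. It went from 15.7, 16.0 and 15.3 CPM to 18.5, 20.0 and 22.2 CPM under prednisolone (0.35 ± 0.06, edgeR adjusted p = 0.000187), a small change whose groups still stood apart. Dexamethasone raised FOSL2 by 0.74 ± 0.07 (edgeR adjusted p = 3.34e-07). FOSL1, or FRA1, passed the filter on low counts in the dexamethasone comparison alone and was not called there (0.21 ± 0.38, edgeR adjusted p = 0.664).

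ATF3, a stress-induced member that acts mainly as a repressor, fell in both sets. It went from 8.15, 7.47 and 8.71 CPM to 5.19, 5.05 and 5.10 CPM under prednisolone, falling by 0.70 ± 0.09 on the log2 scale (edgeR adjusted p = 2.2e-06), and dexamethasone lowered it by 0.97 ± 0.10 (edgeR adjusted p = 7.97e-07). BATF and BATF3, which lack an activation domain of their own, moved in opposite directions. BATF went from 0.662, 0.367 and 0.697 CPM to 1.43, 1.38 and 1.52 CPM under prednisolone, a rise of 1.27 ± 0.22 (edgeR adjusted p = 9.85e-05) that rests on 18 to 89 counts per library. Under dexamethasone it rose by 1.53 ± 0.19 (edgeR adjusted p = 6.31e-06). BATF3 went from 3.00, 3.67 and 3.50 CPM to 1.19, 1.18 and 0.836 CPM under prednisolone, a log2 change of -1.72 ± 0.16 (edgeR adjusted p = 6.06e-08). The dexamethasone change of BATF3 was -1.79 ± 0.10 (edgeR adjusted p = 2.33e-09).

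**Figure D3:**
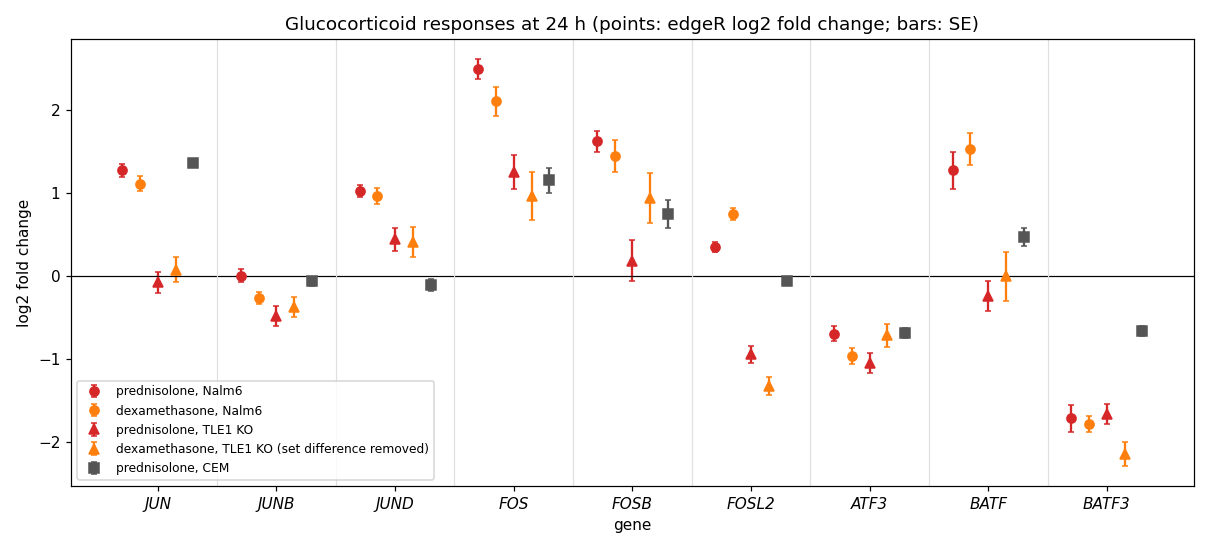
Points give the log2 fold change at 24 h against untreated cells of the same line for 9 AP-1 genes, and bars give the standard error. For the knockout under dexamethasone, the difference between both untreated Nalm6 groups is also taken off. Circles are Nalm6, triangles the TLE1 knockout and squares CEM; JUN lies between 1.11 and 1.36 in Nalm6 and CEM and at -0.08 and 0.07 in the knockout.

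In the knockout, JUN under prednisolone stood at 4.82, 6.002 and 6.06 CPM against 5.42, 5.54 and 6.29 CPM untreated. The groups overlapped and the log2 fold change was -0.08 ± 0.13. Of the 8 other members tested, FOS and JUND rose, FOSL2, JUNB, ATF3 and BATF3 fell, and FOSB and BATF were not called, where 19.8% of all genes rose and 21.9% fell. FOS went from 0.799, 0.581 and 0.739 CPM to 1.73, 1.91 and 1.51 CPM, a rise of 1.25 ± 0.20 (edgeR adjusted p = 0.000713). FOSL2 went the other way from its parental response, from 8.86, 8.59 and 8.03 CPM down to 4.60, 4.62 and 4.35 CPM (-0.95 ± 0.10, edgeR adjusted p = 4.24e-05). FOSB (0.18 ± 0.25, edgeR adjusted p = 0.585) and BATF (-0.25 ± 0.18, edgeR adjusted p = 0.285) had overlapping groups. ATF3 fell by 1.05 ± 0.12 and BATF3 by 1.67 ± 0.12 on the log2 scale, with edgeR adjusted p of 5.31e-05 and 2.26e-06.

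JUND rose in the knockout by 0.44 ± 0.14 under prednisolone (edgeR adjusted p = 0.0269), with 56.2, 54.5 and 42.2 CPM untreated and 54.7, 79.4 and 79.9 CPM treated. That call was lost without replicate 2 or 3 of the treated group (edgeR adjusted p = 0.1 and 0.101) or replicate 3 of the untreated group (edgeR adjusted p = 0.0731). JUNB fell by 0.49 ± 0.12 on the log2 scale (edgeR adjusted p = 0.00887), from 24.3, 23.7 and 24.0 CPM to 13.5, 19.5 and 19.8 CPM. Replicate 1 of the treated knockout was the lowest library of its group for JUN, JUNB and JUND alike. Without it the values were 0.01 for JUN, -0.34 for JUNB (edgeR adjusted p = 0.00774) and 0.59 for JUND (edgeR adjusted p = 0.00354).

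The knockout dexamethasone libraries have no untreated group of their own in the titles. Their response was therefore taken against the untreated knockout, less the difference between both untreated Nalm6 groups. This takes that difference to be the same in knockout cells, which was not tested. On that scale JUN changed by 0.07 ± 0.15. It stood at 4.05, 4.39 and 4.54 CPM under dexamethasone and at 5.42, 5.54 and 6.29 CPM in the untreated knockout. Of the other 8 members, FOS and FOSB were called higher on that scale, and FOSL2, JUNB, ATF3 and BATF3 lower. JUND and BATF were not called, where 18.5% of all genes were higher and 21.5% lower. As CPM alone, JUNB was not lower, at 25.3, 25.9 and 27.6 against 24.3, 23.7 and 23.95 in the untreated knockout. BATF3 stood at 3.97, 3.875 and 3.89 CPM against 7.99, 7.31 and 8.41 CPM there. FOSL2 fell by 1.33 ± 0.11 on the log2 scale (edgeR adjusted p = 1.93e-07), to 3.12, 3.48 and 3.11 CPM, the lowest levels of FOSL2 in the series. BATF3 changed by -2.15 ± 0.14 (edgeR adjusted p = 1.3e-08), FOS by 0.96 ± 0.29 (edgeR adjusted p = 0.0141) and ATF3 by -0.72 ± 0.14 (edgeR adjusted p = 0.000658). The calls of FOSB (0.94 ± 0.30, edgeR adjusted p = 0.0182) and JUNB (-0.38 ± 0.12, edgeR adjusted p = 0.0168) were each lost without 1 library. They ended without replicate 3 of the knockout dexamethasone group for FOSB (edgeR adjusted p = 0.051) and without replicate 3 of the second untreated Nalm6 group for JUNB (edgeR adjusted p = 0.0528).

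The difference between the knockout and parental responses was then fitted directly, as the knockout log2 fold change minus the parental one. The parental prednisolone response crosses the deposit blocks, and the knockout one does not. For prednisolone JUN differed by -1.32 ± 0.15, given as a description. Of the 8 other members, 4 had a lower response in the knockout, 0 a higher one, and 4 were not called, where 1.1% of all genes responded higher and 2.38% lower. At an unadjusted edgeR p under 0.05, 0 of these 8 were higher and 7 lower, where 7.12% of all genes were higher and 9.4% lower, and DESeq2 called 0 higher and 4 lower. The number of all genes called, 624, was 1852 without replicate 3 of the untreated knockout, 361 without replicate 1 of untreated Nalm6 and 4345 with the other untreated Nalm6 group. The 4 members were BATF (-1.50 ± 0.29, edgeR adjusted p = 0.00628), FOSB (-1.41 ± 0.27, edgeR adjusted p = 0.00696), FOSL2 (-1.27 ± 0.12, edgeR adjusted p = 1.45e-05) and FOS (-1.22 ± 0.23, edgeR adjusted p = 0.00624). JUND (-0.56 ± 0.18, edgeR adjusted p = 0.101) and JUNB (-0.47 ± 0.17, edgeR adjusted p = 0.15) were lower without passing the test, and the intervals of 2 standard errors were -0.91 to -0.21 and -0.81 to -0.14. JUND passed it without replicate 3 of the untreated knockout (-0.68, edgeR adjusted p = 0.0128) or with no filter on low counts (-0.56, edgeR adjusted p = 1.19e-06). JUNB passed it with no filter (-0.47, edgeR adjusted p = 0.00171) or with all 33 libraries in 1 fit (-0.47, edgeR adjusted p = 0.0358), and with the other untreated Nalm6 group it was 0.07 (edgeR adjusted p = 0.784). ATF3 (-0.33 ± 0.14) and BATF3 (0.08 ± 0.19) were not called either, with edgeR adjusted p of 0.246 and 0.888. With the other untreated Nalm6 group FOS (-1.69), FOSB (-1.62), BATF (-1.37) and FOSL2 (-1.30) were still called lower, ATF3 was called lower (-0.62, edgeR adjusted p = 0.00442) and BATF3 was called higher (1.24, edgeR adjusted p = 0.000261), where 12.9% of all genes were higher and 11.7% lower. BATF started from a higher level in the untreated knockout, at 1.46, 1.68 and 1.32 CPM, close to its level in Nalm6 under prednisolone.

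For dexamethasone the same difference was added after the data had been seen, and it uses the same untreated knockout and Nalm6 groups as the prednisolone difference. JUN differed by -1.05 ± 0.13, again as a description. Of the other 8 members, 4 responded lower in the knockout and 0 higher (0 also by DESeq2 and at an unadjusted edgeR p under 0.05, by which 18.8% of all genes were higher), where 13.7% of all genes responded higher and 16.6% lower. FOSL2 differed by -2.08 ± 0.11 (edgeR adjusted p = 1.09e-09), BATF by -1.55 ± 0.28 (edgeR adjusted p = 0.000535), FOS by -1.14 ± 0.27 (edgeR adjusted p = 0.00415) and JUND by -0.55 ± 0.14 (edgeR adjusted p = 0.00678). FOSB was not called (-0.50 ± 0.30, edgeR adjusted p = 0.23). FOS, FOSL2 and BATF were thus called for both drugs. The JUND difference was of the same size for both, -0.56 and -0.55, and passed the threshold for dexamethasone. Whether the drugs differ for FOSB or any other member was not tested.

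**Figure D4:**
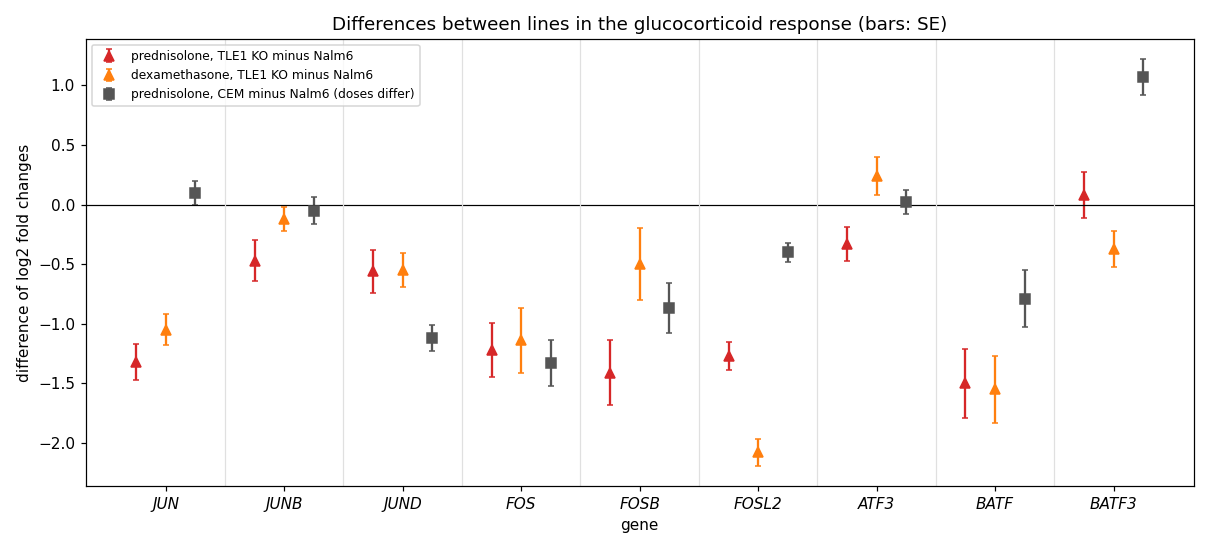
Points give the glucocorticoid response of the knockout or of CEM minus that of Nalm6, as a difference of log2 fold changes, with standard error bars, for 9 AP-1 genes. The knockout points of JUN, FOS, FOSL2 and BATF all lie at or below -1.05. The CEM point of JUN lies at 0.10, and those of FOS, FOSL2 and BATF lie at -1.33, -0.40 and -0.79.

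Compared directly under dexamethasone, the knockout had lower levels than Nalm6 for FOSL2 (-2.93 ± 0.08, edgeR adjusted p = 4.03e-17), FOS (-1.85 ± 0.17, edgeR adjusted p = 8.78e-09), FOSB (-0.61 ± 0.17, edgeR adjusted p = 0.00381), JUND (-0.53 ± 0.06, edgeR adjusted p = 2.83e-07) and JUNB (-0.30 ± 0.05, edgeR adjusted p = 5.3e-05). BATF3 was higher (0.89 ± 0.12, edgeR adjusted p = 2.85e-06). These are 5 lower and 1 higher of 8 tested besides JUN, where 28.1% of all genes were lower and 28.5% higher. JUN differed by -1.28 ± 0.09. ATF3 and BATF were not called (edgeR adjusted p = 0.781 and 0.402).

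In CEM, JUN stood at 36.8, 40.5 and 37.4 CPM untreated and at 108, 99.9 and 93.4 CPM under prednisolone, and the groups were far apart (log2 fold change 1.36 ± 0.05). Of the 8 other members, FOS, FOSB and BATF rose and ATF3 and BATF3 fell, where 22.3% of all genes rose and 22.8% fell. FOS went from 1.15, 1.18 and 1.36 CPM to 3.02, 2.79 and 2.48 CPM (1.15 ± 0.15, edgeR adjusted p = 4.16e-06). FOSB rose by 0.74 ± 0.17 (edgeR adjusted p = 0.00139) and BATF by 0.47 ± 0.11 (edgeR adjusted p = 0.00249). ATF3 fell by 0.69 ± 0.06 and BATF3 by 0.67 ± 0.06 on the log2 scale, with edgeR adjusted p of 8.47e-08 and 4.05e-08. JUND (-0.11 ± 0.07), JUNB (-0.07 ± 0.05) and FOSL2 (-0.06 ± 0.04) were not called, with edgeR adjusted p of 0.196, 0.278 and 0.305.

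The CEM response was set against that of Nalm6 in the same way, although CEM received 10 µM and Nalm6 5 µM prednisolone, so line and dose cannot be told apart. JUN differed by 0.10 ± 0.10, given without a test. Of the other 8 members, 5 responded lower in CEM and 1 higher, where 12.2% of all genes responded lower and 14.7% higher. The lower ones were FOS (-1.33 ± 0.19, edgeR adjusted p = 7.82e-06), JUND (-1.12 ± 0.11, edgeR adjusted p = 3.37e-08), FOSB (-0.87 ± 0.21, edgeR adjusted p = 0.00278), BATF (-0.79 ± 0.24, edgeR adjusted p = 0.0144) and FOSL2 (-0.40 ± 0.08, edgeR adjusted p = 0.000833). BATF3 was the higher one (1.07 ± 0.15, edgeR adjusted p = 3.59e-06), since it fell less in CEM. Without replicate 2 of untreated Nalm6 the BATF difference was -0.57 and no longer called (edgeR adjusted p = 0.067). With the other untreated Nalm6 group these 6 kept their direction and call, BATF3 at 2.24. JUNB, at -0.05 and not called, became 0.49 (edgeR adjusted p = 0.00109), and JUN became -0.34. This difference shares the parental prednisolone response, which crosses the deposit blocks, with the knockout difference.

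CHIR raised BATF3 in Nalm6, and in CEM it raised ATF3 and lowered BATF3 and JUNB. In Nalm6 1 of 8 members other than JUN was called, where 3.16% of all genes rose and 4.72% fell. This was BATF3, which rose from 3.00, 3.67 and 3.50 CPM to 4.32, 4.70 and 4.58 CPM (0.43 ± 0.10, edgeR adjusted p = 0.0261). That call was lost without replicate 2 of the CHIR group or without any single untreated library (edgeR adjusted p from 0.0624 to 0.0928). Leaving out replicate 3 of the CHIR group gave 3 called members, and the count of all genes called, 1425, ran from 409 without replicate 3 of the untreated group to 2708 without replicate 3 of the CHIR group. JUN stood at 7.39, 8.71 and 7.33 CPM under CHIR, overlapping the untreated libraries (0.18 ± 0.09, a description). JUND was lower at 38.8, 44.9 and 31.1 CPM, below every untreated library, without being called (-0.42 ± 0.12, edgeR adjusted p = 0.0569). It was called in 4 of 13 alternatives. These were no filter, all 33 libraries in 1 fit (edgeR adjusted p = 0.0458), and leaving out replicate 2 (-0.56, edgeR adjusted p = 0.0145) or 3 (-0.28, edgeR adjusted p = 0.021) of the CHIR group. In CEM 3 of 8 members other than JUN were called, 1 higher and 2 lower, where 5.41% of all genes rose and 5.43% fell. JUN stood at 48.5, 52.1 and 55.4 CPM (0.46 ± 0.06, a description), above every untreated CEM library. ATF3 rose by 0.28 ± 0.06 (edgeR adjusted p = 0.00726). BATF3 fell by 0.39 ± 0.06 on the log2 scale (edgeR adjusted p = 0.00249), opposite in sign to its change in Nalm6. JUNB fell by 0.23 ± 0.06 (edgeR adjusted p = 0.0259), a call lost without any 1 untreated library or without replicate 1 or 2 of the CHIR group (edgeR adjusted p from 0.0697 to 0.109). It was also lost with count column 2 (edgeR adjusted p = 0.0503) and with all 33 libraries in 1 fit (edgeR adjusted p = 0.143). Without single libraries the count of all genes called in CEM, 1865, fell as low as 1001 (replicate 2 of the CHIR group). CHIR was used at 0.5 µM in Nalm6 and at 2 µM in CEM, and the difference between the lines was not tested.

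Without treatment, the knockout had more BATF and BATF3 and less FOSL2, FOS and ATF3 than Nalm6. These are 5 of 8 members other than JUN, where 15.3% of all genes were higher and 11.8% lower. FOSL2 stood at 8.86, 8.59 and 8.03 CPM against 15.7, 16.0 and 15.3 CPM (-0.86 ± 0.07, edgeR adjusted p = 2.62e-05). BATF differed by 1.37 ± 0.24 (edgeR adjusted p = 0.00255) and BATF3 by 1.25 ± 0.11 (edgeR adjusted p = 3.9e-05), with BATF3 at 7.99, 7.31 and 8.41 CPM in the knockout. FOS differed by -0.71 ± 0.19 (edgeR adjusted p = 0.0207) and ATF3 by -0.29 ± 0.09 (edgeR adjusted p = 0.0445). The FOS call was lost without replicate 2 of the knockout or replicate 2 or 3 of Nalm6 (edgeR adjusted p from 0.0665 to 0.0916), and the ATF3 call without replicate 1 or 2 of the knockout or replicate 1 or 3 of Nalm6 (edgeR adjusted p from 0.116 to 0.161). With count column 2 the ATF3 call was lost as well (edgeR adjusted p = 0.0821). JUN differed by -0.24 ± 0.10, given as a description. The count of called members was 3 without replicate 2 of the knockout or replicate 3 of Nalm6, where 19.5% and 17.2% of all genes were called. The count of all genes called, 4655, was 2804 without replicate 1 of Nalm6. Against the untreated Nalm6 of the dexamethasone set, 3 of the 8 were called, BATF (1.27, edgeR adjusted p = 0.00103), FOSL2 (-0.80, edgeR adjusted p = 0.00015) and JUNB (-0.70, edgeR adjusted p = 0.000198). These were 1 higher and 2 lower, where 19.5% of all genes were higher and 17% lower, so the called share was close to that of all genes. BATF3 (0.11, edgeR adjusted p = 0.425), FOS (-0.22, edgeR adjusted p = 0.499) and ATF3 (0.02, edgeR adjusted p = 0.894) were then not called.

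Both untreated Nalm6 groups carry the same line and no drug, and they also differed in AP-1 genes. In the group of the dexamethasone set, BATF3 (1.15 ± 0.10, edgeR adjusted p = 2.54e-06) and JUNB (0.53 ± 0.08, edgeR adjusted p = 0.000254) were higher. FOS (-0.49 ± 0.19, edgeR adjusted p = 0.0475) and ATF3 (-0.31 ± 0.08, edgeR adjusted p = 0.00679) were lower, and JUN differed by -0.47 ± 0.10, as a description. Of 8 members other than JUN, 2 were higher and 2 lower, where 25.8% of all genes were higher and 24.4% lower. The called share of the members was thus close to that of all genes. The FOS call was lost without replicate 1 or 2 of the dexamethasone set's untreated group or replicate 2 or 3 of the other (edgeR adjusted p from 0.108 to 0.191). It was also lost by DESeq2 (DESeq2 adjusted p = 0.134) and with count column 2 (edgeR adjusted p = 0.0736). BATF3 was thus about as far apart between untreated Nalm6 groups as between the knockout and Nalm6, at 6.76, 6.95 and 7.89 CPM in the dexamethasone set. JUNB under prednisolone, at 24.7 to 30.4 CPM, overlapped the first untreated group and lay below all 3 libraries of the second, so its prednisolone value depends on the untreated group used, as given above.

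Untreated CEM had higher levels than the untreated Nalm6 of the dexamethasone set for 6 of 8 members other than JUN and a lower level for 1. Of all genes 40.2% were higher and 37.3% lower. JUN was 7.76-fold higher (2.96 ± 0.08, a description). BATF was 4.58-fold higher (2.20 ± 0.15, edgeR adjusted p = 1.94e-08), at 2.79, 2.81 and 2.99 CPM in CEM against 0.594, 0.585 and 0.634 CPM. FOSL2 (1.74 ± 0.07), ATF3 (1.57 ± 0.07), BATF3 (1.15 ± 0.07) and JUND (0.54 ± 0.12) were higher too, with edgeR adjusted p of 3.5e-11, 1.96e-10, 9.88e-09 and 0.00115. With the other untreated Nalm6 group BATF3 differed by 2.33 (edgeR adjusted p = 2.61e-14). FOS was higher by 0.57 ± 0.19 (edgeR adjusted p = 0.016), and with the other untreated Nalm6 group it was 0.11 and not called (edgeR adjusted p = 0.539). The FOS call was also lost without replicate 3 of CEM or replicate 1 or 2 of the dexamethasone set's untreated Nalm6 (edgeR adjusted p from 0.0502 to 0.0785). By DESeq2 it was lost too (DESeq2 adjusted p = 0.0638). JUNB was lower by 0.51 ± 0.07 on the log2 scale (edgeR adjusted p = 1.46e-05), and its sign turned with the other untreated group (0.04, edgeR adjusted p = 0.522).

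Other genes of the pathway were followed in lists of AP-1-related zipper genes, kinases and other regulators upstream of AP-1, immediate early genes that are not AP-1, and AP-1 target genes. Under prednisolone in Nalm6, 8 of 15 immediate early genes rose and 2 fell, where 28.7% of all genes rose and 26.1% fell, and their median log2 fold change was 0.54 against 0.03 over all genes. BTG2, an antiproliferative gene, rose by 2.70 ± 0.06 and KLF6, a zinc finger factor, by 1.68 ± 0.04, while IER2 (-0.34 ± 0.06) and NR4A1 (-0.31 ± 0.07) fell. In the knockout 6 of 13 rose and 3 fell (19.8% and 21.9% of all genes), among those that rose BTG2 at 2.04 ± 0.07 and KLF6 at 0.83 ± 0.10. In CEM 5 of 13 rose and 2 fell (22.3% and 22.8% of all genes), with BTG2 at 1.52 ± 0.04 and EGR1 at 0.82 ± 0.15. The prednisolone response of 5 of 15 immediate early genes was lower in the knockout than in Nalm6, where 2.38% of all genes were, including KLF6 (-0.83 ± 0.11, edgeR adjusted p = 0.000197) and IER5 (-0.83 ± 0.12, edgeR adjusted p = 0.000476), and 0 were higher (1 at an unadjusted edgeR p under 0.05, 0 by DESeq2). In the dexamethasone difference 9 of 15 were lower and 1 higher (16.6% and 13.7% of all genes), EGR1 by -2.17 ± 0.35 and NR4A1 by 1.16 ± 0.09 (edgeR adjusted p = 0.000177 and 5.12e-08).

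Of the upstream regulators, 8 of 21 rose and 3 fell under prednisolone in Nalm6 (28.7% and 26.1% of all genes), and their median change of 0.07 stood close to the 0.03 of all genes. GSK3B, which encodes a form of the kinase that CHIR inhibits, had the largest rise, by 0.76 ± 0.04 (edgeR adjusted p = 1.88e-11), and under dexamethasone it rose by 1.28 ± 0.04. It also rose in the knockout under prednisolone (0.68 ± 0.07, edgeR adjusted p = 2.54e-05). For dexamethasone the knockout response was lower than the Nalm6 response in 9 of 21 of these genes and higher in 2, where 16.6% of all genes were lower and 13.7% higher. The lower ones were led by MAP2K1 (-1.13 ± 0.07), which encodes the kinase MEK1, and ELK1 (-1.04 ± 0.07), a factor that ERK activates at the FOS promoter. ELK1 also responded lower to prednisolone (-0.45 ± 0.08, edgeR adjusted p = 0.00345).

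Of the 20 AP-1 target genes, 6 to 9 had enough counts to be tested in any comparison. Under prednisolone in Nalm6 3 of 8 rose and 4 fell (28.7% and 26.1% of all genes), with a median of -0.16. SPP1, which encodes osteopontin, fell by 1.48 ± 0.09 on the log2 scale and PLAUR, the urokinase receptor, by 0.89 ± 0.07, while TNF rose by 0.88 ± 0.13. In CEM 3 of 7 rose and 1 fell (22.3% and 22.8% of all genes), and the largest rise was in PLAU, which encodes urokinase (1.31 ± 0.12, edgeR adjusted p = 1.05e-07). Of 8 targets tested, 0 differed in prednisolone response between the knockout and Nalm6 by edgeR's adjusted p or by DESeq2, and 1 was lower at an unadjusted edgeR p under 0.05. Of 12 related zipper genes, 0 differed by edgeR's adjusted p, by DESeq2 or at an unadjusted p under 0.05. A p above the threshold does not show that the responses are alike, and 1.1% of all genes were higher and 2.38% lower there. In the dexamethasone difference 3 of 9 targets were higher and 0 lower (0 by DESeq2, 1 at an unadjusted edgeR p under 0.05), where 13.7% of all genes were higher and 16.6% lower. PLAUR differed by 0.51 ± 0.10 (edgeR adjusted p = 0.00102) and SPP1 by 0.41 ± 0.12 (edgeR adjusted p = 0.0189). Of the 12 zipper genes, 2 were higher and 3 lower in it by edgeR and by DESeq2, among them BACH2, a transcriptional repressor in B cells (0.84 ± 0.08, edgeR adjusted p = 6.51e-07), and ATF7 (-0.61 ± 0.19, edgeR adjusted p = 0.026). Within Nalm6, 3 of these 12 zipper genes rose and 5 fell under prednisolone (28.7% and 26.1% of all genes), with NFE2L2, the regulator of the antioxidant response, at -0.36 ± 0.05 (edgeR adjusted p = 4.73e-06).

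The genes whose mean log2 CPM followed JUN most closely over the 11 groups were MT-TI (Pearson r = 0.988), PTPN9 (0.985), ESYT2 (0.985), SLC25A44 (0.984) and STAG3L3 (0.982), out of 13679 genes searched. MT-TI is a mitochondrial transfer RNA and PTPN9 a protein tyrosine phosphatase. The nearest gene was ZNF189 for FOS (0.956), MT-ND1 for FOSL2 (0.983), CGAS for ATF3 (0.994), HINT2 for BATF (0.979), NPRL2 for BATF3 (0.985), LINC00921 for FOSB (0.972), HEXIM2-AS1 for JUND (0.938) and ARFIP2 for JUNB (0.918). These r values describe 11 points that share 3 lines, and for JUN, FOSL2, ATF3, BATF and BATF3 the 3 CEM groups form the upper end.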

How the data were processed

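RNA was sequenced in 33 libraries. Raw counts of reads for each gene were deposited by the authors, in STAR's gene count layout with 3 count columns. The submitters' processing notes name Bowtie2, DESeq2 and hg19 without a role, and which aligner made the counts is not given in the sources used here. Column 4 was used, since it held 12.3 to 15.3 times the total of column 3. Rows of reads assigned to no gene stayed out of all totals and tests (unmapped 2.84% to 11.16% and outside genes 18.38% to 32.71% of reads).

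Gene symbols matched 40678 of 62446 IDs. CPM is the count per 1000000 gene counts, and levels per kb use the summed exon length in GENCODE v29. Fits used only the libraries of the compared groups (edgeR 4.0.16 in R 4.3.3) with TMM, filterByExpr, the quasi-likelihood F test, Benjamini-Hochberg adjustment over all genes tested and calls at an adjusted p under 0.05. The script was tested on simulated data. FOSL1 passed the filter in 1 comparison, the other 9 members in all. Replicates of 1 group differed by more than counting noise (chi-square per degree of freedom 1.86 to 45.61), and none were merged.

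The members and lists were chosen with earlier results of these data known. Named genes are all members, TLE1, from each list the 2 largest rises and falls called at an average log2 CPM of at least 1 (some are left unprinted), and the nearest genes by Pearson r of group mean log2(CPM + 0.5). Alternatives were DESeq2 1.42.0, RLE size factors, a minimum of 10 counts per library, no filter, a replicate block, column 2, all libraries in 1 fit, the other untreated Nalm6 group and leaving out each library. Replicate numbers were not taken to pair libraries: same-number correlations of deviations were over 0.1 for every number in 1 of 23 group pairs. Promoter sequences are from RefSeq (GRCh38.p14), whereas the counts are on hg19, so no gene coordinates are given for them. Protein sequences were not used here.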

Additional observations from a re-analysis of the deposited data

Results flagged for a closer look

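A test of the difference between lines in the response to a glucocorticoid picked out the following results, and no explanation was tested. The prednisolone response was lower in the knockout than in Nalm6 for BATF (-1.50, log2), FOSB (-1.41), FOSL2 (-1.27) and FOS (-1.22). The dexamethasone response was lower for FOSL2 (-2.08), BATF (-1.55), FOS (-1.14) and JUND (-0.55). JUN is not listed, since its pattern was known when the genes were chosen, and both differences share their untreated groups. The prednisolone response was lower in CEM than in Nalm6 for FOS (-1.33), JUND (-1.12), FOSB (-0.87), BATF (-0.79) and FOSL2 (-0.40), and higher for BATF3 (1.07), at different doses in the 2 lines.

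Among the members other than JUN, FOSL2 was the only one called in opposite directions under a glucocorticoid in Nalm6 and in the knockout. It rose under both drugs in Nalm6 and fell under both in the knockout, and its difference kept its call under every alternative run, from -1.32 to -1.17 for prednisolone and from -2.12 to -2.01 for dexamethasone.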

How the results depend on the processing

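Of 127 values of single members, JUN included, 101 kept their side of the threshold under every alternative run and 26 did not. The JUN values in this tally are descriptions and give no support, since the pattern of JUN was known beforehand. The sign turned with a call in 4 of the 127, each time with the other untreated Nalm6 group. JUNB was then 0.04 in untreated CEM against Nalm6 and 0.49 in the prednisolone difference of CEM and Nalm6, where JUN was -0.34 (a description), and ATF3 was 0.02 in the untreated knockout. Apart from the untreated CEM comparison, that alternative was chosen after seeing the data. The number of members called under CHIR in Nalm6 was 1, and it was 2 with no filter, 2 with all 33 libraries in 1 fit, and 0 to 3 when single libraries were left out. Of all genes 7.88% were called there, and 2.23% to 14.8% without single libraries. Untreated knockout against Nalm6 gave 5 called members, 3 with the other untreated Nalm6 group, and 3 to 6 when single libraries were left out. The 6 includes JUN, which is a description here. Of all genes 27.1% were called in that comparison, 36.6% with the other untreated Nalm6 group, and 16.5% to 36.7% without single libraries. The replicate block ended 1 call of a member, ATF3 in the untreated knockout (-0.29, edgeR adjusted p = 0.0682), and the numbers do not pair the libraries. For all genes, counts moved by over 1.5 times in 4 comparisons: CHIR in Nalm6 (1425, from 409 to 2708), CHIR in CEM (1865, down to 1001), the untreated knockout (4655, down to 2804) and the prednisolone difference of knockout and Nalm6 (624, from 361 to 1852 without single libraries and 4345 with the other untreated Nalm6 group). The causes were not tested. Depth limits FOSL1, with 2 to 16 counts per library, and widens the errors of BATF, FOS and FOSB, which had under 100 counts in most untreated libraries.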
